A study of Mus musculus with 12 samples.

Results

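The 8 genes described here encode T-box transcription factors: Tbx1, Tbx2, Tbx3, Tbx4, Tbx5, Tbx15, Tbx18 and Tbx20. They were taken by symbol from a table of 27179 genes in cultured mouse embryonic fibroblasts, connective-tissue cells grown out of embryos, and each of the 8 was found there by its Entrez identifier. The study asked how an inhibitor of the MYST histone acetyltransferases, WM-8014, changes the transcripts of these cells. Cells were wild type, of strain C57BL/6, isolated on embryonic day 13.5 and kept at 3% oxygen. The 4 groups received 10 µM WM-8014 for 96 h, 10 µM WM-2474 for 96 h, 10 µM WM-8014 for 240 h, or 10 µM WM-2474 for 240 h, where WM-2474 is labelled as the inactive control compound. No group was left without a compound. Each group holds 3 libraries, from cultures numbered 5, 6 and 7, which makes 12 libraries.

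T-box factors share a DNA-binding domain first known from Brachyury and bind a short DNA element, the T half-site, as activators or as repressors. In the mouse embryo they set up limbs, heart, pharyngeal arches, dermis and skeleton, and several stay on in the mesenchyme that gives rise to fibroblast cultures. Tbx2 and Tbx3 are repressors known to hold down Cdkn2a, the locus of the cell-cycle inhibitors p16Ink4a and p19Arf, and Tbx1 and Tbx5 are known in mice to need the MYST enzyme KAT6A for full transcription in the embryo.

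Values per library are given as CPM, counts scaled to a common total after library totals were adjusted by the trimmed mean of M values (TMM), and in the order of cultures 5, 6 and 7. The libraries held 10147466 to 45903190 reads, a 4.52-fold span, and 3 reads were worth between 0.0654 and 0.296 CPM. The deepest library was that of culture 7 in the WM-2474 96 h group. The 96 h WM-2474 libraries numbered 6 and 7 were taken beforehand to stand apart in a few genes, which is not shown here. Calls are therefore also given without this pair where they differ, in a fit that leaves 1 library in that group. All 10 fibroblast markers, from Col1a1 to Fap, averaged over 1 CPM in every group. The 8 cardiomyocyte markers summed to 2.39 to 8.71 CPM, with 1 of 8 over 1 CPM in each group. The 6 skeletal muscle markers, 2 of which exceeded 1 CPM in each group, summed to 498 to 718 CPM with WM-8014 and 260 to 345 CPM with WM-2474 at 240 h, and to 153 to 182 CPM with WM-8014 and 135 to 149 CPM with WM-2474 at 96 h. The 2 over 1 CPM were Acta1 and Des, while Myod1, Myf5 and Ckm had no reads in the WM-8014 240 h group. The 7 leukocyte markers summed to 9.58 to 11.2 CPM with WM-8014 and 4.95 to 6.22 CPM with WM-2474 at 240 h, and to 9.003 to 12.4 and 7.24 to 7.98 CPM with the same compounds at 96 h. Summed cardiomyocyte markers were lower with WM-8014, at 4.56 to 6.12 CPM against 8.58 to 8.71 CPM with WM-2474 at 240 h, and at 2.39 to 2.99 CPM against 3.40 to 4.64 CPM at 96 h. The cardiomyocyte marker over 1 CPM was Tnnt2, and not every one of the 8 was lower. Myl7 averaged 0.644 CPM with WM-8014 and 0.259 CPM with WM-2474 at 240 h. The 7 endothelial markers were apart at 96 h, at 4.02 to 5.88 CPM with WM-8014 and 6.80 to 7.97 CPM with WM-2474, and the epithelial and mesothelial ones at 240 h, as given with the time comparison. Sums of the fibroblast, neural, and cartilage and bone markers overlapped between compounds at both times. Col1a1 and Col1a2 made up most of the fibroblast sum, so it says little of the other markers. At 240 h Fap averaged 3.47 CPM with WM-8014 and 11.1 CPM with WM-2474, and Lum 3.45 and 16.0 CPM. Of the 10 fibroblast markers, edgeR called 1 higher and 3 lower at 240 h, and 1 higher and 1 lower at 96 h. Of all genes, 42.6% were called at 240 h and 22.8% at 96 h. The part of any of these marker sets in the T-box levels was not tested. The cultures are labelled female, yet every library held reads of the Y-linked Ddx3y, at 102 to 115 CPM of plain library totals, and at most 4 reads of Xist.

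Per gene length, Tbx15 was the highest of the 8 genes in every group. It stood at 28.4 ± 2.9 RPKM (CPM per kilobase of gene length; SD, n = 3) with WM-8014 and 35.5 ± 2.6 RPKM with WM-2474 at 96 h, and at 28.0 ± 2.6 and 38.7 ± 4.2 RPKM with the same compounds at 240 h. Tbx3 and Tbx18 followed. Tbx3 averaged 6.08 ± 0.45 RPKM with WM-8014 and 7.16 ± 0.08 RPKM with WM-2474 at 96 h, while Tbx18 averaged 5.40 ± 0.58 and 4.01 ± 0.69 RPKM. Their ranges were apart in both WM-2474 groups, with Tbx3 above Tbx18. In both WM-8014 groups the ranges overlapped, and at 240 h Tbx18, at 5.29 ± 0.32 RPKM, had a higher mean than Tbx3, at 4.96 ± 0.31 RPKM. Tbx1, Tbx5 and Tbx2 came next in that order in all 4 groups, between 0.760 and 3.26 RPKM, followed by Tbx4 at 0.485 to 1.23 RPKM. Tbx1 and Tbx5 overlapped in every group but WM-2474 240 h, and Tbx2 and Tbx4 overlapped in every group but WM-8014 240 h. Tbx20 was last, at 0.108 to 0.131 RPKM, from 4 to 59 reads per library. Its range overlapped that of Tbx4 in the WM-2474 240 h group, where the Tbx4 value of culture 7 lay below all 3 Tbx20 values.

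**Figure D1:**
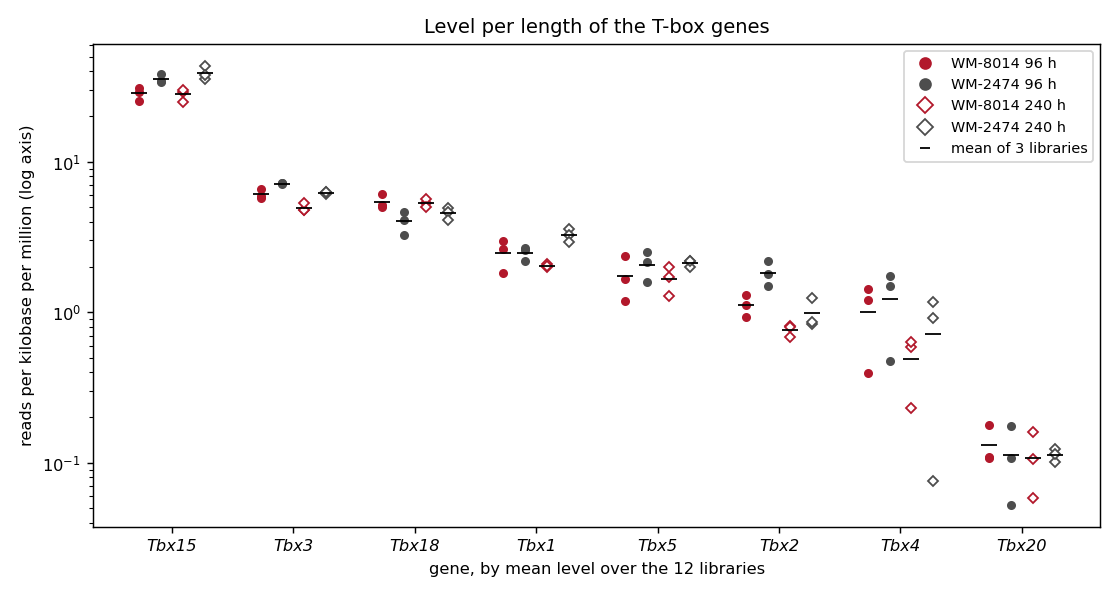
Level of each T-box gene in every library, in RPKM, which is CPM per kilobase of the deposited gene length (log axis), with genes ordered by their mean over the 12 libraries. Points are libraries, the bars are means of 3 libraries, filled circles are 96 h and open diamonds are 240 h; Tbx15 lies above every other member in every group and Tbx20 averages 0.108 to 0.131 RPKM.

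The RefSeq promoter table of assembly GRCm38.p6 held windows for 4 of the 8 genes, Tbx1, Tbx4, Tbx18 and Tbx20. The 250 bases before the start site are shown for Tbx1, called lower under WM-8014 at 240 h, and Tbx18, called higher at 96 h. They are also shown for Tbx4, whose level went with the culture number. Each is printed 5′ to 3′ on the strand of the gene, and capitals mark motif matches on either strand. The motifs searched were the T half-site AGGTGTNA, the CCAAT box CCAAT, the TATA box TATAAA and the GC box GGGCGG.
Tbx1, upstream start, chr16:18590672-18590921, minus strand: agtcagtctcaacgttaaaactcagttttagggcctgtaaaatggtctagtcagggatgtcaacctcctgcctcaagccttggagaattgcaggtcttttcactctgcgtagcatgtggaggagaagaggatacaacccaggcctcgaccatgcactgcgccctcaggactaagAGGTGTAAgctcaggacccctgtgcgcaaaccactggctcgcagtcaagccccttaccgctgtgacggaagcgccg
Tbx1, start 1772 bases inside the gene, chr16:18588900-18589149, minus strand: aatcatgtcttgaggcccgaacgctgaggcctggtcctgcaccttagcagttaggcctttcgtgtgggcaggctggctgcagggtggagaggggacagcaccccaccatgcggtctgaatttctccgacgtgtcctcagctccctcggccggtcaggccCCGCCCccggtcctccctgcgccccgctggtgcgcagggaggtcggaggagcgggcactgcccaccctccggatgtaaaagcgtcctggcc
Tbx18, chr9:87731261-87731510, minus strand: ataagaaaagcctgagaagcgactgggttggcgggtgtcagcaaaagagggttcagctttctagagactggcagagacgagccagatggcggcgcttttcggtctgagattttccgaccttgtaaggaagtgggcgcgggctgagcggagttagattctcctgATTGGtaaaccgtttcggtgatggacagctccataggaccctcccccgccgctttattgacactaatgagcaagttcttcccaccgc
Tbx4, start 10398 bases inside the gene, chr11:85896515-85896764, plus strand: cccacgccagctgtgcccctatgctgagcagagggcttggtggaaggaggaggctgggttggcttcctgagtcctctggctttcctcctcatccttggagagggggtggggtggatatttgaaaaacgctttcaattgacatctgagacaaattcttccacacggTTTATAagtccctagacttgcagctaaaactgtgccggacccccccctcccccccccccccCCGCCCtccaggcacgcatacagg
The upstream Tbx1 window holds 1 T half-site, AGGTGTAA, which begins 76 bases before the start, and 2.68% of 32851 promoter windows of the same length in the table hold one on either strand. The inner Tbx1 window has a GC box and the Tbx18 window a reversed CCAAT box, motifs found in 32.7% and 33.8% of all windows. The Tbx4 window has a reversed TATA box, found in 12.4% of windows, and a GC box 24 bases before the start. The inner Tbx1 window has 17 CG dinucleotides, the upstream one 10, Tbx18 15 and Tbx4 6, against a median of 6 over all windows. The counts were made per gene, so they do not show which Tbx1 or Tbx4 start was used.

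Under WM-8014, Tbx2 and Tbx3 were lower and Tbx18 higher than under WM-2474 at 96 h, and Tbx1, Tbx3 and Tbx15 were lower at 240 h. Tbx3 was the member that passed at both times. At 96 h, 1 member was higher and 2 were lower at an adjusted p under 0.05 (edgeR's quasi-likelihood test with Benjamini-Hochberg adjustment over 14136 genes), where 22.8% of all genes tested passed, 10.9% higher and 11.8% lower. At 240 h, 0 members were higher and 3 were lower, where 42.6% of all genes passed, 21.2% higher and 21.4% lower. DESeq2 and limma-voom also called 0 members higher at 240 h, and 0 higher members had an unadjusted p under 0.05 in edgeR, but Tbx18 passed as higher at 240 h in 4 of 25 alternative settings. The median log2 fold change of the 8 members was -0.14 at 96 h and -0.36 at 240 h, against medians of 0.00 and 0.01 over all genes. With 8 genes, a count of 3 lies near the background share at 240 h and little above it at 96 h, so the counts alone say nothing particular to the family. In bulk RNA, fewer cells of a type and less RNA per cell cannot be told apart, which holds for every fall described here.

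**Figure D2:**
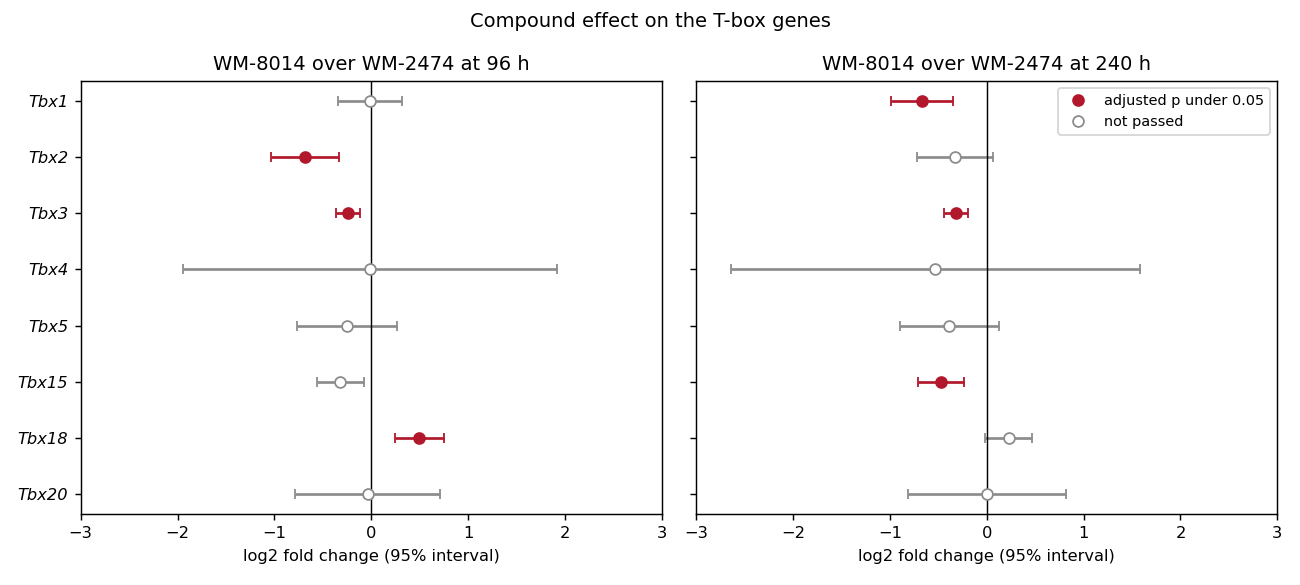
Log2 fold change of WM-8014 over WM-2474 for each T-box gene at 96 h (left) and 240 h (right), with 95% intervals from the edgeR fit on 3 libraries per group. Filled points passed at an adjusted p under 0.05; Tbx2, Tbx3 and Tbx18 are filled at 96 h and Tbx1, Tbx3 and Tbx15 at 240 h, while the widest intervals belong to Tbx4.

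The repressors Tbx2 and Tbx3 were lower with WM-8014 in all 6 pairs of same-numbered cultures. How many of all genes share a direction in all 6 pairs was not counted. Pair counts here and below are description only, and the pairing of compounds at 240 h is undecided, as given with the processing. Tbx2 lies on chromosome 11 (85832615 to 85841948 in GRCm38.p6). It stood at 4.01, 4.64 and 3.31 CPM with WM-8014, against 7.80, 5.28 and 6.39 CPM with WM-2474, at 96 h. At 240 h the values were 2.42, 2.87 and 2.83 CPM with WM-8014, against 4.45, 2.98 and 3.07 CPM with WM-2474. The compound groups did not overlap at either time, but at 240 h the WM-8014 value of culture 6 and the WM-2474 value of the same culture lay close together. On the log2 scale Tbx2 differed by -0.69 at 96 h (SE 0.17, adjusted p = 0.00586), which is 1.61-fold lower. It was -0.33 at 240 h (95% interval -0.72 to 0.07), which did not pass (adjusted p = 0.175). Without culture 7 in all groups the 96 h call was lost (adjusted p = 0.12, in a range of 0.000815 to 0.12 over 25 alternative settings).

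Tbx3, which lies beside Tbx5 on chromosome 5 (119670534 to 119684724 in GRCm38.p6), had the smallest errors of the 8 genes. Its level at 96 h was 33.5, 29.2 and 30.0 CPM with WM-8014, against 35.9, 36.5 and 36.7 CPM with WM-2474. At 240 h it was 24.2, 24.4 and 27.0 CPM with WM-8014, against 30.9, 31.8 and 31.8 CPM with WM-2474. Every WM-8014 library lay below every WM-2474 library of its time. Tbx3 had log2 fold changes of -0.24 at 96 h (SE 0.0601, adjusted p = 0.00672) and -0.32 at 240 h (SE 0.0609, adjusted p = 0.000202), and the 240 h call held in all 25 alternative settings. The 96 h call was lost without culture 6 (0.0993) or culture 7 (0.0966) in all groups and without the 96 h WM-2474 libraries numbered 6 and 7 (0.211), in a range of 0.00324 to 0.211.

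Cdkn2a, the known target of these repressors, went the other way. It read 146, 144 and 132 CPM with WM-8014, against 82.3, 97.1 and 84.0 CPM with WM-2474, at 96 h, and 371, 365 and 397 CPM with WM-8014, against 159, 156 and 166 CPM with WM-2474, at 240 h. Cdkn2a had log2 fold changes of 0.68 at 96 h (adjusted p = 8.27e-07) and 1.24 at 240 h (adjusted p = 1.69e-11). The 2 repressors and Cdkn2a also moved in opposite directions with time. Between 96 h and 240 h Tbx2 fell by 0.53 on the log2 scale under WM-8014 (adjusted p = 0.0307) and by 0.89 under WM-2474 (adjusted p = 0.000178). Tbx3 fell by 0.29 (adjusted p = 0.00059) and by 0.21 (adjusted p = 0.00611) under the same compounds. Over the same span Cdkn2a rose by 1.43 under WM-8014 (adjusted p = 1.01e-12) and by 0.87 under WM-2474 (adjusted p = 1.92e-09). A link between the repressors and Cdkn2a was not tested.

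Tbx1, a factor of the pharyngeal arches and the cardiac outflow tract, was lower with WM-8014 at the later time. It lies on chromosome 16 (18580979 to 18590671 in GRCm38.p6). At 96 h it stood at 4.69, 5.32 and 3.25 CPM with WM-8014, against 4.73, 3.91 and 4.61 CPM with WM-2474. The groups overlapped, with the WM-8014 library of culture 6 highest and that of culture 7 lowest. At 240 h it stood at 3.53, 3.70 and 3.58 CPM with WM-8014, against 6.38, 5.78 and 5.20 CPM with WM-2474, and the groups were apart. Tbx1 had log2 fold changes of -0.01 at 96 h (95% interval -0.34 to 0.32, adjusted p = 0.968) and -0.67 at 240 h (SE 0.153, adjusted p = 0.00116), which is 1.59-fold lower. The 240 h call held in all 25 alternative settings, with adjusted p from 0.000241 to 0.0222. The difference between both effects, the compound by time interaction, was -0.66 (SE 0.221, unadjusted p = 0.00716) and did not pass (adjusted p = 0.0611). It passed when the culture 7 library of the WM-8014 96 h group was left out (0.012) and without culture 7 in all groups (0.0325), in a range of 0.012 to 0.444 over 24 settings.

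Tbx15 and Tbx18 are closely related factors of the trunk and limb mesenchyme, the first known for the skeleton and the dermis, and Tbx18 for somites, epicardium and the mesenchyme of the ureter. They differed in the direction of their values. Tbx15, on chromosome 3 (99240348 to 99354260 in GRCm38.p6), read 110.2, 90.0 and 104 CPM with WM-8014, against 137, 121 and 122 CPM with WM-2474, at 96 h. At 240 h it read 103, 89.2 and 107 CPM with WM-8014, against 154, 126 and 134 CPM with WM-2474. Every WM-8014 library was below every WM-2474 library of its time, and culture 6 was the lowest culture in each of the 4 groups. Its log2 fold change was -0.32 at 96 h (95% interval -0.56 to -0.07), which did not pass (adjusted p = 0.0653), and -0.47 at 240 h (SE 0.107, adjusted p = 0.00573), which is 1.39-fold lower. Same-numbered cultures deviated together at 96 h, and with the culture number as a replicate block Tbx15 passed there too (-0.32, adjusted p = 1.26e-05). The 240 h call was lost without culture 7 in all groups (0.063, in a range of 4.77e-09 to 0.063).

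Tbx18, on chromosome 9 (87702800 to 87731260 in GRCm38.p6), was the member with higher values under WM-8014. It stood at 28.4, 23.3 and 24.1 CPM with WM-8014, against 21.7, 19.2 and 15.3 CPM with WM-2474, at 96 h, and at 24.7, 26.3 and 23.3 CPM with WM-8014, against 23.0, 21.7 and 19.3 CPM with WM-2474, at 240 h. The groups were apart at both times, by less at 240 h, where the lowest WM-8014 library and the highest WM-2474 library differed by under 1 CPM. The log2 fold change was 0.50 at 96 h (SE 0.119, adjusted p = 0.00783), which is 1.41-fold higher, and 0.22 at 240 h (95% interval -0.02 to 0.47, adjusted p = 0.125). The 240 h value passed in 4 of 25 settings, among them the fit of the compared groups alone (adjusted p = 0.0346, in a range of 0.0125 to 0.447). Without the 96 h WM-2474 libraries numbered 6 and 7 the 96 h value was 0.22 and did not pass (adjusted p = 0.384, in a range of 9.94e-05 to 0.384).

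Counting groups that did not overlap, 4 members were apart at 96 h, with Tbx18 above and Tbx2, Tbx3 and Tbx15 below, where 38.1% of all genes were apart, 18.1% above and 19.9% below. At 240 h, 5 members were apart, the same 4 genes and Tbx1, where 51.8% of all genes were apart, 26.2% above and 25.6% below. Tbx4, Tbx5 and Tbx20 overlapped at both times.

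**Figure D3:**
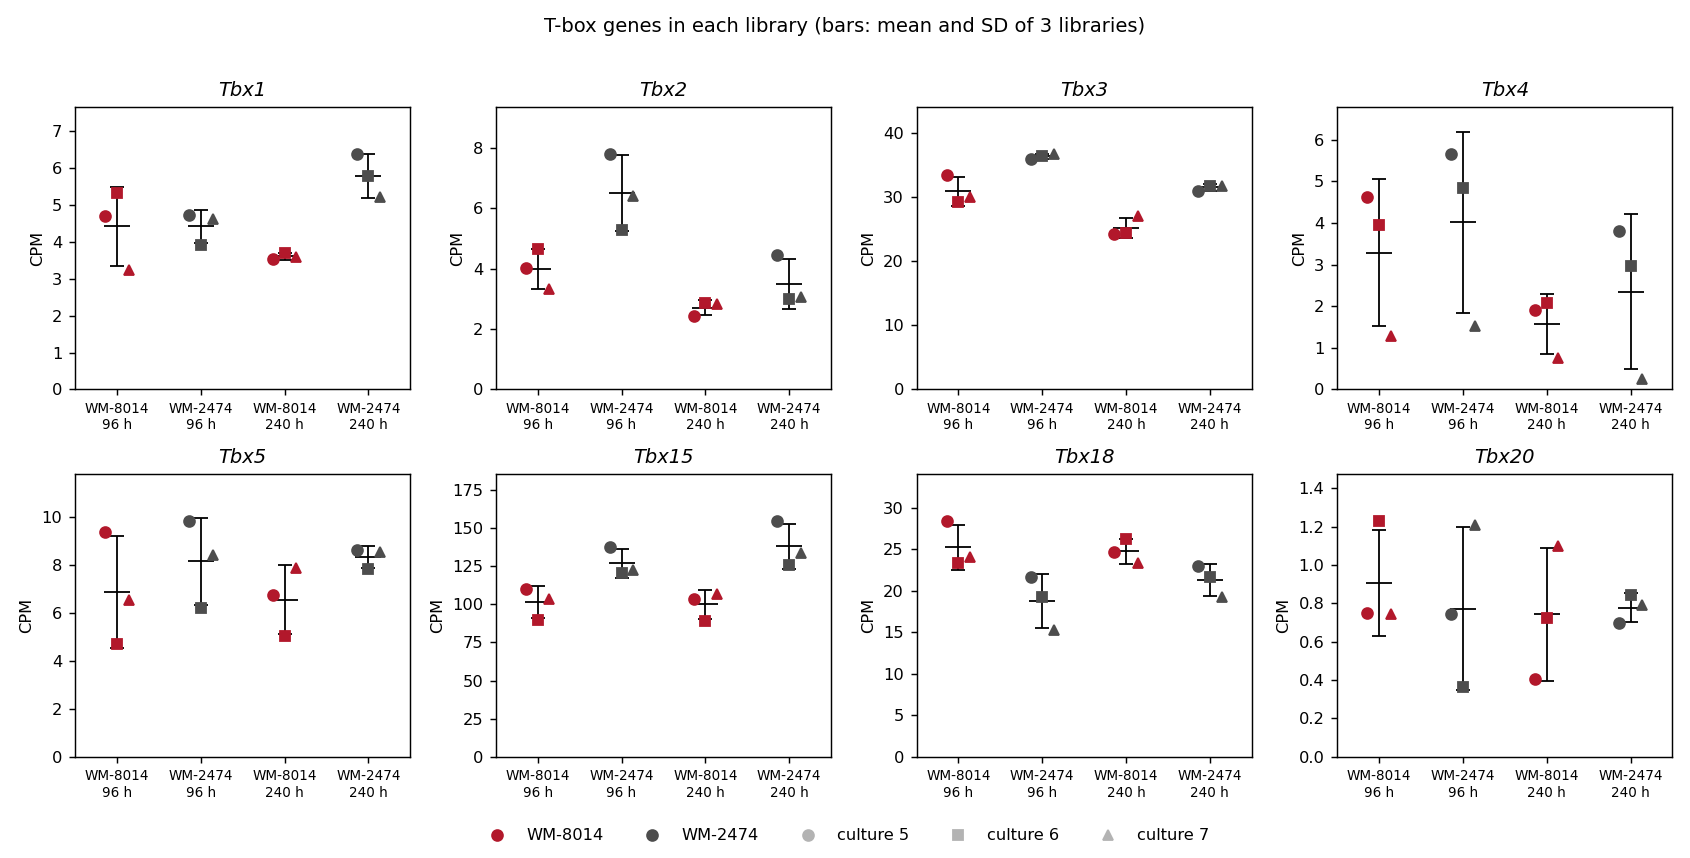
CPM of each T-box gene in the 12 libraries, WM-8014 left of WM-2474 at each time, with the mean and SD of 3 libraries and the culture number given by the symbol. Each panel has its own axis from 0; Tbx2, Tbx3 and Tbx15 lie lower and Tbx18 higher with WM-8014 at both times, Tbx1 lies lower at 240 h, and culture 7 is lowest for Tbx4 in every group.

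Tbx4 and Tbx5 are the hindlimb and forelimb members of one subfamily, and Tbx5 is also a heart factor. Tbx4 lies on chromosome 11 (85886367 to 85916097 in GRCm38.p6) and Tbx5 on chromosome 5 (119796514 to 119885220). Tbx4 stood at 4.62, 3.96 and 1.29 CPM with WM-8014, against 5.66, 4.85 and 1.54 CPM with WM-2474, at 96 h. At 240 h it stood at 1.92, 2.07 and 0.750 CPM with WM-8014, against 3.81, 2.98 and 0.248 CPM with WM-2474, where the last value rests on 5 reads. Culture 7 was the lowest in each of the 4 groups, and the compound groups overlapped at both times. In the fit without the culture number, the log2 fold change of Tbx4 was -0.01 at 96 h (95% interval -1.94 to 1.92, adjusted p = 0.995). At 240 h it was -0.53 (95% interval -2.65 to 1.59, adjusted p = 0.683). These intervals include the spread between cultures. At 96 h Tbx4 was lower with WM-8014 in each same-numbered culture, which this fit does not take into account. Over 25 alternative settings its 96 h value ran from -0.79 to 0.38 and never passed. Group means of Tbx4 were 3.29 ± 1.8 CPM with WM-8014 and 4.02 ± 2.2 CPM with WM-2474 at 96 h; the fit weights libraries by depth, so its estimate is not the ratio of these means. Without culture 7 in all groups Tbx4 passed at 240 h (-0.73, adjusted p = 0.0159, in a range of 0.0159 to 0.978).

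Tbx5 read 9.37, 4.71 and 6.56 CPM with WM-8014, against 9.84, 6.22 and 8.44 CPM with WM-2474, at 96 h, and 6.76, 5.05 and 7.91 CPM with WM-8014, against 8.63, 7.83 and 8.57 CPM with WM-2474, at 240 h. It was lower with WM-8014 in all 6 same-numbered pairs, a count without a share over all genes, while the groups overlapped at both times. The log2 fold change was -0.25 at 96 h (95% interval -0.76 to 0.27, adjusted p = 0.506) and -0.39 at 240 h (95% interval -0.89 to 0.12, adjusted p = 0.205).

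Differences between the cultures were then tested by the culture term of an edgeR fit with the culture number, chosen after the levels had been seen. Of the 8 members 3 passed, where 1.49% of all genes did (211 of 14136). Tbx4 averaged 4.0, 3.46 and 0.955 CPM in cultures 5, 6 and 7 (adjusted p = 2.59e-06), the 6th smallest p of all genes. Tbx15 averaged 126, 106 and 117 CPM (adjusted p = 0.0018), and Tbx5 averaged 8.65, 5.95 and 7.87 CPM (adjusted p = 0.0409). Tbx18 did not pass (24.5, 22.6 and 20.5 CPM, adjusted p = 0.0747), nor did Tbx1, Tbx2, Tbx3 and Tbx20, with adjusted p from 0.74 to 0.955.

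Pitx1, the hindlimb factor known to act upstream of Tbx4, was also lowest in culture 7. Its means were 7.78, 8.10 and 1.87 CPM in cultures 5, 6 and 7 (adjusted p = 0.000183). Hoxc10, another gene of the posterior trunk and hindlimb, averaged 23.3, 22.3 and 17.6 CPM (adjusted p = 0.000431). Foxc1, Shox2 and Lmx1b were among the other limb and outflow patterning genes that passed. Lmx1b, a dorsal limb factor, averaged 1.07, 0.556 and 0.348 CPM, and Foxc1 averaged 27.1, 38.0 and 30.6 CPM, so the order of the cultures was not the same in each gene.

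**Figure D4:**
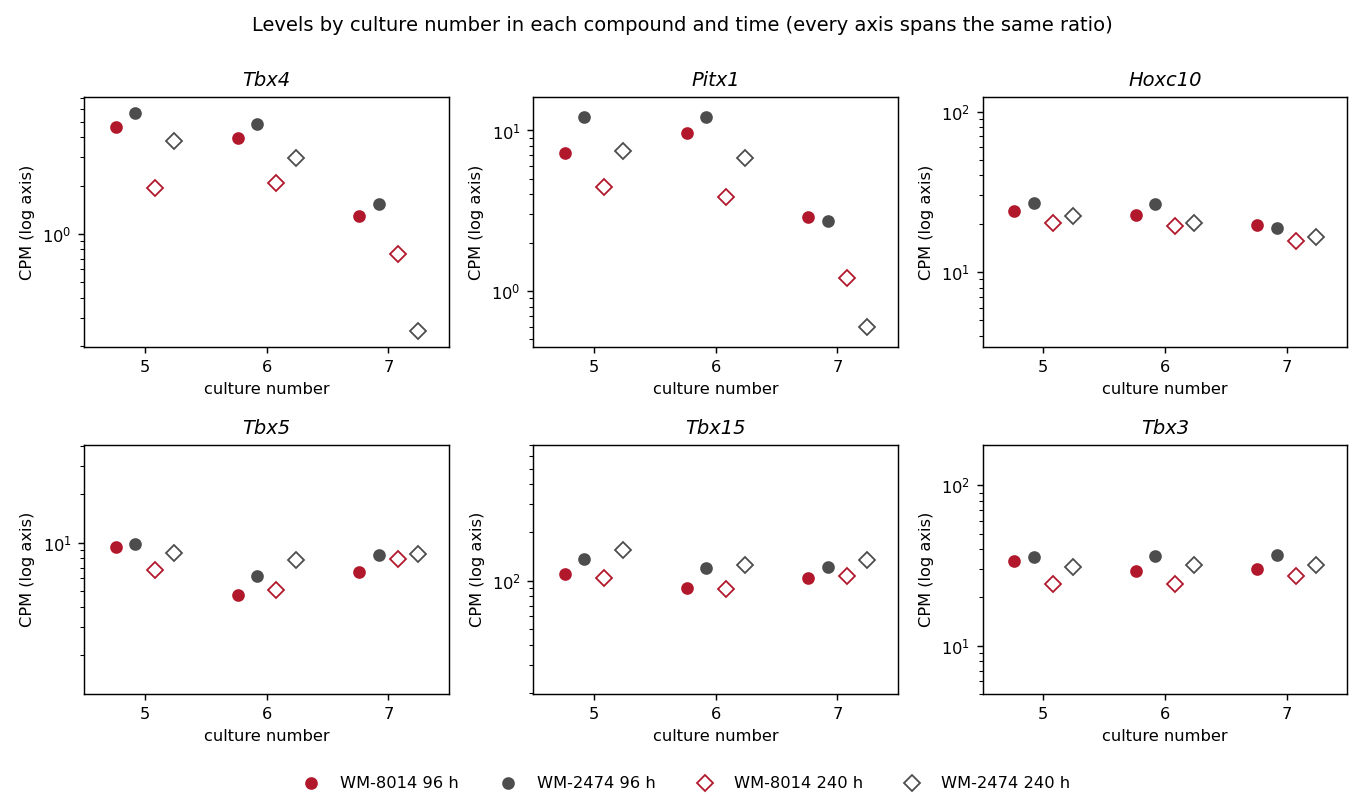
CPM on log axes that span the same ratio in each panel, by culture number, for Tbx4, Pitx1, Hoxc10, Tbx5, Tbx15 and Tbx3; each point is 1 library, and the culture number has no order. In Tbx4 and Pitx1 the 4 libraries of culture 7 lie below all libraries of cultures 5 and 6 (Pitx1 means 7.78, 8.10 and 1.87 CPM), while the 3 cultures of Tbx3 average 31.1, 30.5 and 31.4 CPM.

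Tbx20, a heart factor on chromosome 9 (24720812 to 24774303 in GRCm38.p6), was at the edge of detection. It stood at 0.747, 1.23 and 0.744 CPM with WM-8014, against 0.743, 0.362 and 1.21 CPM with WM-2474, at 96 h, and at 0.404, 0.726 and 1.10 CPM with WM-8014, against 0.697, 0.845 and 0.792 CPM with WM-2474, at 240 h. No order of the groups was visible, and 10 of the 12 libraries reached the limit of the filter on low counts (0.613 CPM). The log2 fold change was -0.03 at 96 h (95% interval -0.78 to 0.71) and 0.00 at 240 h (95% interval -0.82 to 0.81), and the sign changed with the settings.

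Time in culture was examined within each compound. Under WM-8014, 0 members were higher and 2 were lower at 240 h than at 96 h (Tbx2 and Tbx3), where 49.7% of all genes passed, 24.8% higher and 25% lower. DESeq2 and limma-voom also called 0 members higher under WM-8014, and 0 had an unadjusted p under 0.05 in that direction. Under WM-2474, 1 was higher (Tbx1) and 2 were lower (Tbx2 and Tbx3), where 38.9% of all genes passed, 19.8% higher and 19.1% lower. Tbx1 rose by 0.37 on the log2 scale under WM-2474 (SE 0.144, adjusted p = 0.0445), a call lost in 14 of 25 settings, and had -0.28 under WM-8014 (adjusted p = 0.168). Tbx2 under WM-8014 lost its call in 8 of 25 settings, with adjusted p up to 0.166, and Tbx3 under WM-2474 in 2, without culture 7 in all groups (0.0557) and without the 96 h WM-2474 libraries numbered 6 and 7 (0.198). Tbx15 had -0.03 under WM-8014 and 0.13 under WM-2474, Tbx18 had -0.02 and 0.25, and Tbx5 had -0.11 and 0.03, none of which passed. Tbx4 had -1.02 under WM-8014 (95% interval -3.13 to 1.08) and -0.50 under WM-2474 (95% interval -2.38 to 1.38) in the fit without the culture number, and was lower at 240 h in all 6 same-numbered pairs. Without culture 7 in all groups, its lowest culture, Tbx4 passed as lower at 240 h under WM-8014 (-1.08, adjusted p = 0.000942) and under WM-2474 (-0.63, adjusted p = 0.0253). Markers of other cells moved with time as well: the 8 epithelial and mesothelial markers summed to 21.4 to 27.0 CPM with WM-8014 and 16.9 to 18.01 CPM with WM-2474 at 240 h, against 39.3 to 66.3 and 40.6 to 59.0 CPM with the same compounds at 96 h. The 7 endothelial markers summed to 2.42 to 2.71 CPM with WM-8014 and 2.53 to 3.32 CPM with WM-2474 at 240 h, against 4.02 to 5.88 and 6.80 to 7.97 CPM at 96 h, and the 4 of them that were tested were lower under both compounds (medians -1.05 and -1.41 on the log2 scale). Of 10 fibroblast markers 6 were higher and 1 lower under WM-8014, and 7 were higher and 1 lower under WM-2474. Their part in the falls of Tbx2 and Tbx3 was not tested.

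None of the 8 members passed the interaction test in edgeR, which 10.7% of all genes passed (5.15% higher and 5.53% lower), and 1 of them, Tbx1, had an unadjusted p under 0.05. DESeq2 and limma-voom also called 0, and with library totals alone edgeR called 1 (Tbx1). The interaction was 0.36 for Tbx2 (95% interval -0.18 to 0.89), -0.08 for Tbx3 (-0.26 to 0.10), -0.16 for Tbx15 (-0.50 to 0.19) and -0.27 for Tbx18 (-0.62 to 0.08). A change in the size of the compound effect between 96 and 240 h was therefore not detected in these 4 genes. Of them, Tbx2, Tbx15 and Tbx18 each passed at 1 time in the main fit.

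The genes whose log2 CPM ran most like each member over the 12 libraries are given as a description, since the 12 libraries share compounds, times and cultures. Tbx4 ran most like Pitx1 (Pearson r = 0.985) and Hoxc10 (0.907). For Tbx3 the nearest were Reep1 (0.982), Clcc1 (0.98) and the class I histocompatibility gene H2-K1 (0.97). Reep1, a shaper of the endoplasmic reticulum, read 8.69, 6.96 and 7.17 CPM with WM-8014, against 14.5, 13.8 and 12.8 CPM with WM-2474, at 96 h. Tbx15 ran most like Lgr5 (0.966), the R-spondin receptor, which read 49.1, 29.0 and 66.7 CPM with WM-8014, against 149, 78.3 and 113 CPM with WM-2474, at 240 h, with culture 6 again the lowest. Tbx2 was nearest to Nptx1 (0.955), Tbx1 to the cytokine Il33 (0.935), Tbx5 to C1qtnf7 (0.882) and Tbx18 to Rpain (0.88). Tbx20, with the fewest reads, had its best match at 0.889 with an unnamed gene of Entrez identifier 100503379.

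Of the other T-box genes 4 passed the filter on low counts: Eomes, Mga, Tbr1 and Tbx6. None of these 4 passed at 96 h, with unadjusted p of 0.144 to 0.927 in edgeR. At 240 h Eomes, a factor of early mesoderm, was higher, at 5.25, 6.05 and 4.39 CPM with WM-8014, against 4.40, 3.56 and 2.72 CPM with WM-2474 (log2 fold change 0.58, adjusted p = 0.00475). The groups of Eomes overlapped, since its lowest WM-8014 value, in culture 7, was just under the highest WM-2474 value, in culture 5.

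Among 15 genes tested of 20 listed as known targets of T-box factors, 5 were higher and 1 was lower at each time, where 10.9% of all genes were higher and 11.8% lower at 96 h, and 21.2% higher and 21.4% lower at 240 h. The higher ones at both times were Cdkn2a, Cdkn2b, Cdkn1a and Fgf10. Cdkn2b, which encodes p15Ink4b, had log2 fold changes of 0.24 at 96 h and 0.80 at 240 h, and Cdkn1a, which encodes p21, had 0.11 and 0.37. Fgf10, the limb growth factor that Tbx4 and Tbx5 are known to activate, read 35.6, 37.2 and 36.4 CPM with WM-8014, against 29.3, 27.6 and 27.2 CPM with WM-2474, at 96 h. It rose by 0.39 at 96 h and 0.63 at 240 h on the log2 scale (adjusted p = 0.000755 and 3.19e-07), while Tbx4 and Tbx5 did not pass at either time. The median over the target list was -0.04 at 96 h and 0.01 at 240 h, close to the median of all genes.

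Of 17 cofactors and partners tested, 3 were higher and 2 lower at 96 h, and 6 were higher and 5 lower at 240 h, where 22.8% of all genes passed at 96 h and 42.6% at 240 h. Bmi1, a Polycomb subunit that also represses Cdkn2a, was higher at both times (0.35 and 0.27 on the log2 scale), as was Ldb3 (0.35 and 0.79). Hdac2, a histone deacetylase that acts with repressors, was lower at both times (-0.19 and -0.21). Of 33 limb and outflow patterning genes, 1 was higher and 9 lower at 96 h, and 5 were higher and 8 lower at 240 h, beside 10.9% higher and 11.8% lower of all genes at 96 h and 21.2% and 21.4% at 240 h. The 240 h count of the patterning list is near the share of all genes. Foxc2 (-0.43 and -0.36), Wnt5a (-0.31 and -0.51) and Hoxc9 (-0.37 and -0.50) were lower at both times, and Meis1 was lower by 0.52 on the log2 scale at 240 h. The median of the patterning list was -0.14 at 96 h and -0.10 at 240 h. Among 13 MYST enzymes and partners, 1 was higher and 1 lower at 96 h, and 2 were higher and 3 lower at 240 h. Of all genes, 22.8% passed at 96 h and 42.6% at 240 h. Kat6a had -0.07 at 96 h (adjusted p = 0.256) and was lower at 240 h (-0.21, adjusted p = 0.000233). Kat6b was higher at both times (0.20 and 0.28), and the partner Brpf1 was lower at 96 h (-0.38). At 240 h the partner Brpf3 was higher (0.25) and the partner Jade1 lower (-0.20). Kat6a transcript levels do not measure the activity of the enzyme.

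In the genome Tbx2 and Tbx4 lie 44419 bases apart on chromosome 11, and Tbx2 passed for the compound at 96 h and not for the culture, while Tbx4 passed for the culture and not for the compound. The difference between the 2 genes was not tested. Tbx3 and Tbx5 are neighbours on chromosome 5, with Tbx3 called and Tbx5 not in the main fit. The fold changes of Tbx5 were no smaller than those of Tbx3 at either time, but had wider intervals. With the replicate block Tbx5 passed as lower at 240 h. A difference between Tbx3 and Tbx5 was not tested. Not every neighbour is printed here, and Wars2, Spag17, Rbm19 and Herpud2 are among those left out. Of all genes, 21.4% were lower at 240 h. Gnb1l, 14299 bases from Tbx1 on chromosome 16, was lower at 240 h (-0.44, adjusted p = 0.0165), as was Tbx1. At 96 h the Gnb1l groups were also apart, at 3.75 to 3.87 CPM with WM-8014 and 4.08 to 5.06 CPM with WM-2474, while those of Tbx1 overlapped. The nearest counted genes to Tbx18 on chromosome 9 were Cep162, 447264 bases away, and Nt5e, 596349 bases away. Both Cep162 (-0.27, adjusted p = 0.0124) and Nt5e (-0.73, adjusted p = 0.0354) were lower at 240 h, where Tbx18 did not pass. Gm5563, a noncoding gene that overlaps Tbx5, had 0.415 to 0.941 CPM and did not pass at 240 h (-0.72, adjusted p = 0.0735). Gm35369 overlaps Tbx1, Tbx3os1 overlaps Tbx3, and Gm46817 and Gm52611 overlap Tbx15 in the RefSeq table. The strand setting of the counting is not given in the sources used here, so reads of overlapping genes may not be separated.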

How the data were processed

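Poly(A) RNA was sequenced from 12 libraries made with a kit that marks strand (TruSeq Stranded mRNA LT), per the labels' protocols. The deposited table holds raw read counts per Entrez gene, which the submitters' processing notes tie to featureCounts and build mm10. For the aligner, the annotation and the strand setting, nothing was given in the sources used here. The authors' table also gives gene lengths, which were used for RPKM. Symbols and coordinates, counted from 1, come from a RefSeq table of GRCm38.p6, the coordinate system of mm10, which matched 25275 of 27179 identifiers.

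The analysis used edgeR 4.0.16 in R 4.3.3: filterByExpr by group left 14136 genes and kept 99.93% or more of each library's reads, TMM scaling followed, and a mean was fitted for each of 4 groups over all 12 libraries. Contrasts were tested two-sided with the robust quasi-likelihood F test, with Benjamini-Hochberg adjustment over all genes tested and a threshold of 0.05. The common biological coefficient of variation was 4.64%. Standard errors came from log2 fold changes and their F statistics, and 95% intervals from these errors. Single-library log2 CPM, used for likeness and pairing, had a prior count of 2. Floors of 3 reads cover counting error only. The fit was also run on simulated counts that held no differences between cultures, so that run cannot test how the fit handles shared culture numbers. Replicates differed by 2.1 to 7.13 in chi-square per degree of freedom, more than sampling noise, so all were kept. Cultures are biological replicates by the series' design text.

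Alternatives were DESeq2 1.42.0 size factors or its Wald test, library totals alone, limma-voom (limma 3.58.1), no filter, at least 1 CPM in 3 libraries, a replicate block, leaving out each culture number, each library or the pair of 96 h WM-2474 libraries numbered 6 and 7, fitting the compared groups alone, and thinning to the smallest library. Deviations of same-numbered libraries from their group means correlated at 0.141, 0.15 and 0.158 at 96 h, all over 0.1, so the numbers were taken to pair libraries there. At 240 h they were 0.0636, 0.243 and 0.0475, not all over 0.1, so these values leave the pairing of compounds there undecided. Libraries correlated best with their own number in 4 of 6 cases at 240 h, and in 6 of 6 between times under each compound. The correlations between times were 0.0636, 0.19 and 0.0816 under WM-8014, and 0.0289, 0.102 and 0.0745 under WM-2474. Not all of these were over 0.1 either. The culture term was added after the levels were seen.

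The 8 members and the lists were chosen with earlier results of these data known. The rule for names took the members, Cdkn2a, Kat6a and Kat6b, the 4 smallest p values of each list per comparison, overlapping and nearest genes, and the 3 genes most alike by Pearson r. Not all of these are printed. Foxc1, Shox2, Lmx1b and the Y-linked genes were named after their values were seen. The count of patterning genes that passed the culture term is not reported here.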

Additional observations from a re-analysis of the deposited data

How the results depend on the processing

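The calls of Tbx1 and Tbx3 at 240 h held in all 25 alternative settings. Members called were 3 at 96 h and 3 at 240 h, 0 in the interaction, 2 over time under WM-8014 and 3 over time under WM-2474. Without the pair of 96 h WM-2474 libraries numbered 6 and 7 there was 1 at 96 h and 1 over time under WM-2474, and over all genes 869 in place of 3218 passed at 96 h, 586 in place of 1510 in the interaction and 2710 in place of 5497 over time under WM-2474. One library is then left in that group and is assumed to vary like the others. With the replicate block 5 members passed at 240 h, where Tbx5 (-0.35, adjusted p = 0.0343) and Tbx18 (0.24, adjusted p = 0.0125) were added, and 5 over time under WM-2474, 2 higher and 3 lower. It added Tbx4 over time under WM-8014 (-0.99, adjusted p = 0.00163) and under WM-2474 (-0.85, adjusted p = 0.00215), and in the interaction it changed no call. Each library correlated best with its own number in 6 of 6 cases at 96 h and over time under each compound, and in 4 of 6 at 240 h. Library totals alone gave 1 in the interaction, and limma-voom 1 over time under WM-8014. Leaving out 1 culture number or library gave 1 to 4 at 96 h, 3 to 4 at 240 h, 0 to 1 in the interaction, 1 to 3 over time under WM-8014 and 2 to 3 under WM-2474; over all genes at 96 h it gave 1750 to 3392. In the fit of the compared groups alone Tbx15 passed at 96 h (0.0177) and Tbx18 at 240 h (0.0346). Thinning made Tbx2 pass at 240 h (-0.59, 0.0478).

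Signs changed in members that had not passed. Tbx20 at 96 h was 0.11 with DESeq2, 0.0538 with limma-voom, 0.0808 with the block, 0.28 without that pair and 0.33 after thinning, and at 240 h 0.00022 with DESeq2 size factors and 0.00055 with the stricter filter. Tbx4 was 0.30 with limma-voom and 0.0271 in the fit of the compared groups at 96 h, and 0.0513 with limma-voom at 240 h. The Tbx18 interaction was 0.0056 without that pair. With 1 culture or library left out, the ranges were -0.23 to 0.22 for Tbx1, -0.67 to 0.38 for Tbx4 and -0.55 to 0.89 for Tbx20 at 96 h, -0.30 to 0.16 for Tbx20 at 240 h, and -1.16 to 0.034 for Tbx4 over time under WM-2474. The cause was not tested.

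With library totals alone the median of all genes over time was -0.20 in place of -0.02 under WM-8014, where 1749 were higher and 6850 lower in place of 3504 and 3527, and -0.16 in place of -0.01 under WM-2474, where 1365 were higher and 5955 lower in place of 2800 and 2697. The split was 2361 and 3909 in place of 2996 and 3031 at 240 h, and 519 and 1059 in place of 728 and 782 in the interaction. Falls of members over time are relative to that shift. Depth limits Tbx4 and Tbx20 most, with as few as 5 and 4 reads in a library.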
